A study of Homo sapiens with 21 samples.

Results

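Interferon response and antigen presentation genes were followed across islet cells differentiated from H1, a human embryonic stem cell line. The 44 genes were chosen by symbol, in a list made with earlier results of these data known. They are 44 of the 62699 genes in the count table, and were all among the 25884 genes that passed the filter on low counts. The cells were labelled WT, ISL1-/-, PAX6-/- or PDX1-/-, the last 3 being knockouts of transcription factor genes of the endocrine pancreas. On day 11 of differentiation every culture was transduced with a lentivirus, which encoded either the blue fluorescent marker BFP or ISL1 followed by an IRES2 element and BFP. On day 18 the BFP+ cells were collected by sorting. The 21 libraries form 8 groups: 2 each for WT with BFP, WT with the ISL1 vector and PDX1-/- with the ISL1 vector, and 3 for each of the other 5. All groups share the transduction and the sort, so no group shows these genes without a virus. Nothing in the labels says whether a knockout is 1 clone or several, and the replicates are called biological without saying what they share, so a p-value here measures the spread between these libraries.

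Interferons are secreted proteins that bind receptors on a cell's surface and act through Janus kinases and STAT proteins. A complex that includes STAT2 and IRF9 binds the interferon-stimulated response element (ISRE) of target genes, while interferon gamma acts through the gamma-activated site (GAS). Targets include antiviral effectors and the class I pathway, in which the immunoproteasome cuts peptides, TAP carries them into the endoplasmic reticulum, and HLA class I chains with B2M show them to T cells. In pancreatic islets this programme is known from the study of type 1 diabetes, where islet cells with raised class I were described.

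The promoters of the genes that the results turn on are shown for their ISRE and GAS letters, as the 250 bases before the annotated start, 5′ to 3′ on the gene's strand (RefSeq, GRCh38.p14). Capitals mark matches to the ISRE letters TTTCNNTTTC, on either strand, or to the GAS letters TTCNNNGAA, which read the same on both strands. In EPSTI1 the 2 kinds overlap. IFI6 lies at chr1:27672193-27672442 on the minus strand, IFIT1 at chr10:89392373-89392622 on the plus strand, OAS1 at chr12:112906712-112906961 on the plus strand and IFIH1 at chr2:162318685-162318934 on the minus strand. EPSTI1 lies at chr13:42992242-42992491 on the minus strand, HLA-B at chr6:31357180-31357429 on the minus strand, HLA-F at chr6:29723184-29723433 on the plus strand and TAP1, the first of its 2 annotated starts, at chr6:32853705-32853954 on the minus strand.
IFI6: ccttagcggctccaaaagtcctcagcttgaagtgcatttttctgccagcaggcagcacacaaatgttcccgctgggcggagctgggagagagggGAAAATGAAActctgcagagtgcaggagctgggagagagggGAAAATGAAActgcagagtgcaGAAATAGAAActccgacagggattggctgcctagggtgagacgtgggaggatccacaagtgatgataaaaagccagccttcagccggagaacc
IFIT1: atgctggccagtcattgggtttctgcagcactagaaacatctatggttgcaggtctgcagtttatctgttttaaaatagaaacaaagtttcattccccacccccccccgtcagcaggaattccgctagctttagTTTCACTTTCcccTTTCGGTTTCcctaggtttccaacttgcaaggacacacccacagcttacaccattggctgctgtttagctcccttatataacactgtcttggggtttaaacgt
OAS1: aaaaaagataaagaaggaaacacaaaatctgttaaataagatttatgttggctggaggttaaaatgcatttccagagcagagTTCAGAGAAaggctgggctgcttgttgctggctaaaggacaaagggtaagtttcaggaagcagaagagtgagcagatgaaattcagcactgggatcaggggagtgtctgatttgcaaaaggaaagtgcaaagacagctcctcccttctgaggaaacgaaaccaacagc
IFIH1: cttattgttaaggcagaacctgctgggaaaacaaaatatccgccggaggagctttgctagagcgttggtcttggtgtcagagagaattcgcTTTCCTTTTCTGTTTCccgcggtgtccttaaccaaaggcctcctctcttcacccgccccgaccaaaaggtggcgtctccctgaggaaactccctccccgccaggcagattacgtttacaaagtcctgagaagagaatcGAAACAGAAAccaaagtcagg
EPSTI1: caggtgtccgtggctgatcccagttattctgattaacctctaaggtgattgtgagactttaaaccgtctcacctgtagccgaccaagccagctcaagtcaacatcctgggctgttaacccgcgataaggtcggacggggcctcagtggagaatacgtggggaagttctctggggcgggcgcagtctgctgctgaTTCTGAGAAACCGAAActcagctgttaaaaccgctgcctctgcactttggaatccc
HLA-B: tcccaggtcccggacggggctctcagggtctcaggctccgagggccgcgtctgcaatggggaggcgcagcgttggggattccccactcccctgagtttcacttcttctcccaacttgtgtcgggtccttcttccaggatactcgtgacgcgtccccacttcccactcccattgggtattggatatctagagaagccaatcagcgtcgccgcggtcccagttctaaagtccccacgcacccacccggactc
HLA-F: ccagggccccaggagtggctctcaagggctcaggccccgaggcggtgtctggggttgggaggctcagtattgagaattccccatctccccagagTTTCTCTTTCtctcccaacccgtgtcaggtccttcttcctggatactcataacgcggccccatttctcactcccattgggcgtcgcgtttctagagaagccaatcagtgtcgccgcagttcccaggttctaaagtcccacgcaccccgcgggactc
TAP1: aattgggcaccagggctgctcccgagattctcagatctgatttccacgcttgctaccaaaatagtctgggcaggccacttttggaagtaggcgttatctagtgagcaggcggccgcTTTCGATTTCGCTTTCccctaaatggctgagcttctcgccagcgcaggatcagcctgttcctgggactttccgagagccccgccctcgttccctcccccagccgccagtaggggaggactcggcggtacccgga

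The table of promoters held 35 of the 44 genes, with 47 starts between them. The ISRE letters were in 25 of these 47 windows (53.2%), against 1061 of all 35116 windows (3.02%), and the GAS letters were in 11 (23.4%), against 2306 (6.57%). IFI6 and IFIH1 each held 3 ISRE matches, IFIT1 held 2 and OAS1 held 1 GAS match and no ISRE match. HLA-F held 1 ISRE match, while the HLA-B, HLA-C and PSMB9 windows held neither motif. A match is a string of letters in this window and was not measured as a bound site. Only these exact letters were looked for, so variants, such as gaaacgaaa near the OAS1 start, were not counted. A window with no match is therefore not shown to lack an ISRE or a GAS.

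Total counts per library ranged from 36807615 to 60199880. Of the targeted genes, ISL1 was at 73.7 to 82.4 CPM (counts scaled to a common library size) in ISL1-/- with BFP and 306 to 519 in WT with BFP, while PAX6 was at 99.5 to 166 CPM in PAX6-/- against 140 to 232 in WT, and PDX1 at 103 to 116 in PDX1-/- against 80 to 102 in WT. PAX6 counts thus overlapped, and PDX1 counts were not lower in the knockout. Gene counts include any transcript left by an edit, and the labels do not say which part was changed. ISL1 was at 337 and 361 CPM in WT with the ISL1 vector, within its range with BFP, and overlapped between vectors in ISL1-/-, PAX6-/- and PDX1-/- too. Genotypes and vectors are therefore given as labelled, and every direction below rests on those labels. All 12 endocrine markers were detected in every library. Replicate 3 of PAX6-/- and replicate 4 of PDX1-/-, both with the ISL1 vector, stood apart: mitochondrial genes took 3.16% and 3.84% of their counts, against 1.28% to 1.93% in the other 19. Genes with an exon length under 1 kb were high and those over 5 kb low in these 2 libraries. STAT2, which carries the interferon signal to the nucleus and has 9310 bases of exon, was at 22.6 and 20.1 CPM there and at 79 to 135 CPM in the other 19. Counts of calls are therefore given with all 21 libraries and with both of these left out, where 27284 genes were tested.

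Levels between genes were compared per kb of exon, as CPM per kb. The highest of the 44 over the 21 libraries was IFI6, a mitochondrial antiviral protein, with a median of 295.3 CPM per kb (92.67 to 750.2). B2M, the light chain of class I, had a median of 264.2 (131.1 to 1052), HLA-C 96.65 (54.66 to 519.1), ISG15, a ubiquitin-like protein, 70.04 (27.69 to 196.6) and HLA-E 26.67 (12.59 to 44.53). The ranges of neighbours in this order overlapped. At the other end stood OASL, a relative of the oligoadenylate synthetases, with a median of 0.0247 CPM per kb and from 0 to 60 counts per library. NLRC5, the activator of class I genes, had a median of 0.0939 CPM per kb and from 4 to 139 counts. The plot of all genes by library shows the 2 patterns that the rest of the text describes. IFI6, IFIT1, OAS1 and IRF7 were high in ISL1-/- and PDX1-/-. Class I genes such as HLA-B and HLA-F were low in all 3 knockouts with BFP. Response genes as a whole did not share the first pattern. Of 23 antiviral effectors, 15 had a negative log2 fold change in PDX1-/- over WT with BFP (median -0.33), and 8 in ISL1-/- (median 0.47). In PDX1-/- ISL1 replicate 4, HLA-B and HLA-F were at 879 and 14.9 CPM, above WT with BFP.

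**Figure D1:**
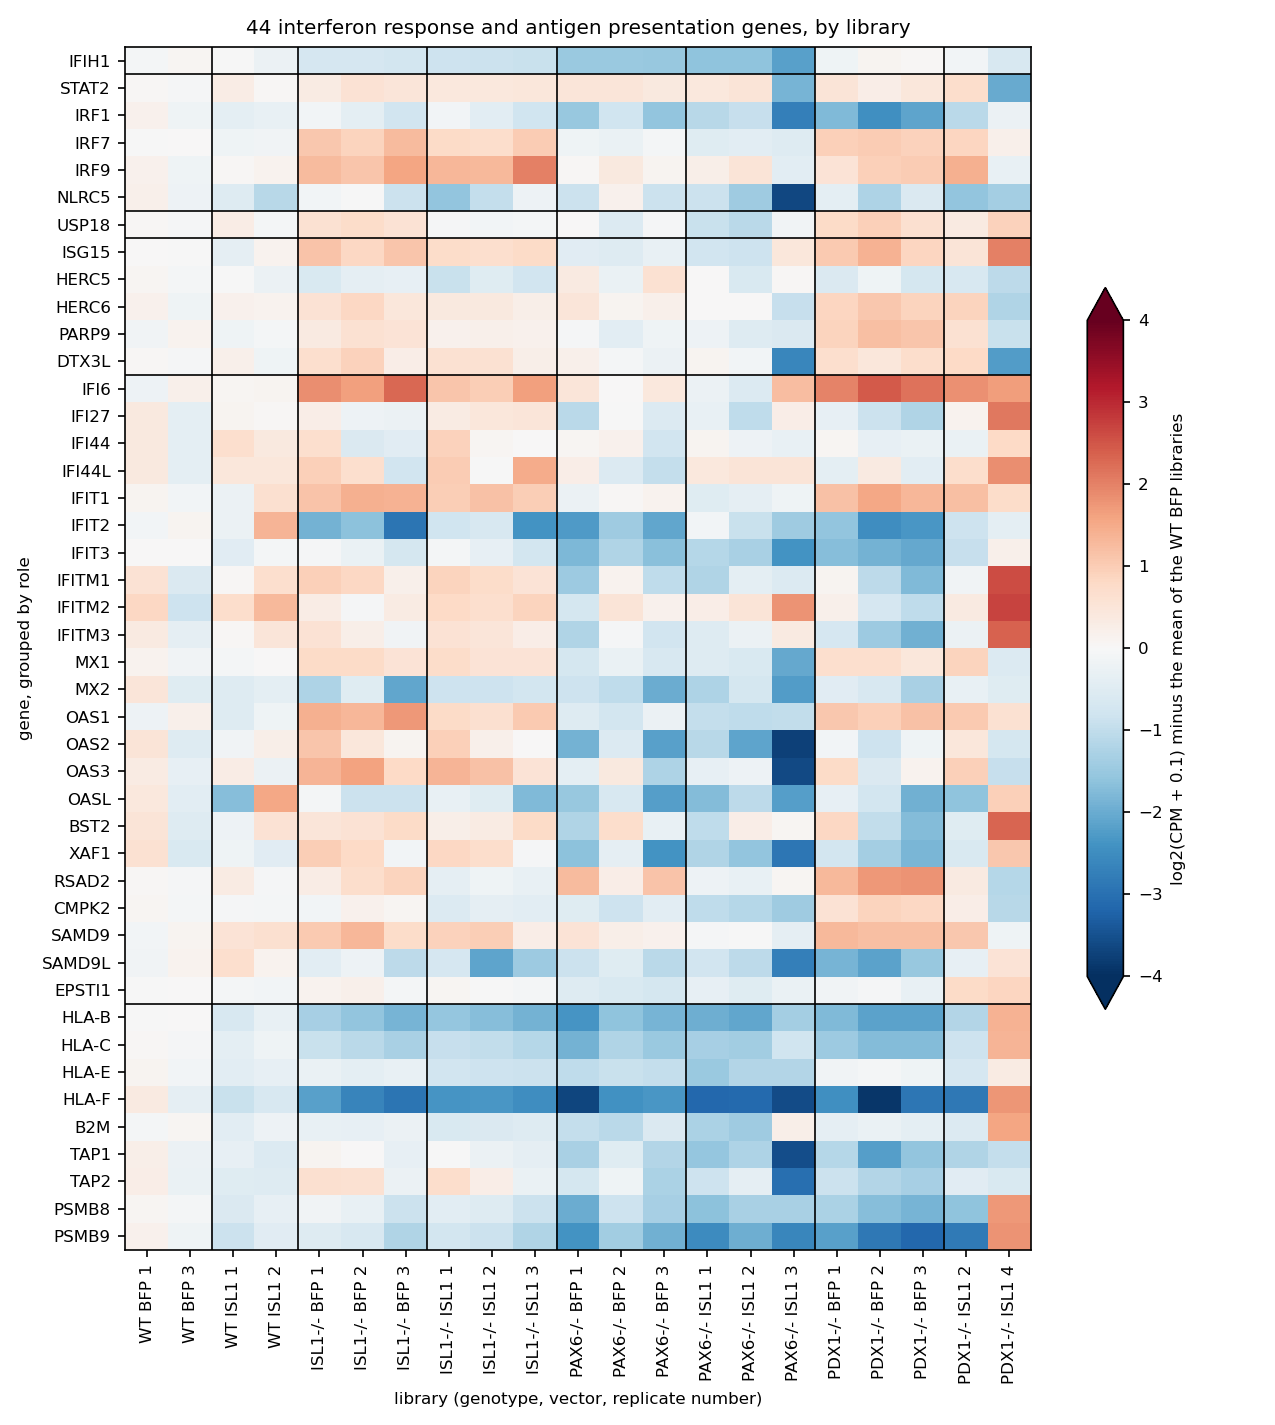
Each row is 1 of the 44 genes, grouped by role, and each column 1 of the 21 libraries; colour is log2(CPM + 0.1) minus the mean of the WT BFP libraries. IFI6, IFIT1, OAS1 and IRF7 are red in ISL1-/- and PDX1-/-, HLA-B, HLA-C and HLA-F are blue in the knockouts, and PDX1-/- ISL1 replicate 4 is red for HLA-B, HLA-C, HLA-F, B2M, PSMB8 and PSMB9.

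The ligands were nearly absent. Of the 6 interferon genes looked for (IFNB1, IFNA1, IFNL1, IFNL2, IFNL3 and IFNG), the highest count in any library was 6, and 0 were abundant enough to be tested. IFNG and IFNL2 had 0 counts in all 21 libraries, which allows up to 3 counts in each, by counting error alone. The receptors were present: IFNAR1, a chain of the type I receptor, ranged from 1481 to 3434 counts and IFNGR1, of the gamma receptor, from 3354 to 5451.

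With the BFP vector, knockouts were compared with WT, 3 libraries against 2. In ISL1-/-, 4 of the 44 genes rose and 3 fell (adjusted p under 0.05), where 1.67% of all genes tested rose and 3.92% fell. In PAX6-/-, 0 rose and 7 fell, where 2.25% of all genes rose and 3.26% fell. In PDX1-/-, 7 rose and 9 fell, where 4.03% rose and 5.65% fell. The median log2 fold change of the 44 was 0.14, -0.57 and -0.34, against 0.02, 0.03 and 0.03 over all genes tested. Without the 2 libraries that stood apart, which belong to none of these groups but set part of the shared spread, 14 rose and 7 fell in ISL1-/- (11.3% and 12.2% of all genes), 2 rose and 18 fell in PAX6-/- (11.7% and 11.9%), and 15 rose and 14 fell in PDX1-/- (13.5% and 14.1%). The 3 comparisons share the 2 WT libraries. For fits that left out 1 library, here and below, the share of all genes called is not given. Such counts therefore do not show a change particular to these genes. The counts were 2 and 1 in ISL1-/-, 1 and 1 in PAX6-/- and 3 and 5 in PDX1-/- without WT BFP replicate 1 or replicate 3. Leaving out any 1 of the ISL1-/- BFP libraries left 4, leaving out PAX6-/- BFP replicate 1 or 3 left 1, and leaving out PDX1-/- BFP replicate 2 or 3 left 8. In all, 3 libraries outside these groups raised the counts by over 1.5 times when left out: PAX6-/- ISL1 replicate 3 (11 in ISL1-/-) and PDX1-/- ISL1 replicates 2 and 4 (12 each in ISL1-/- and 13 each in PAX6-/-).

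**Figure D2:**
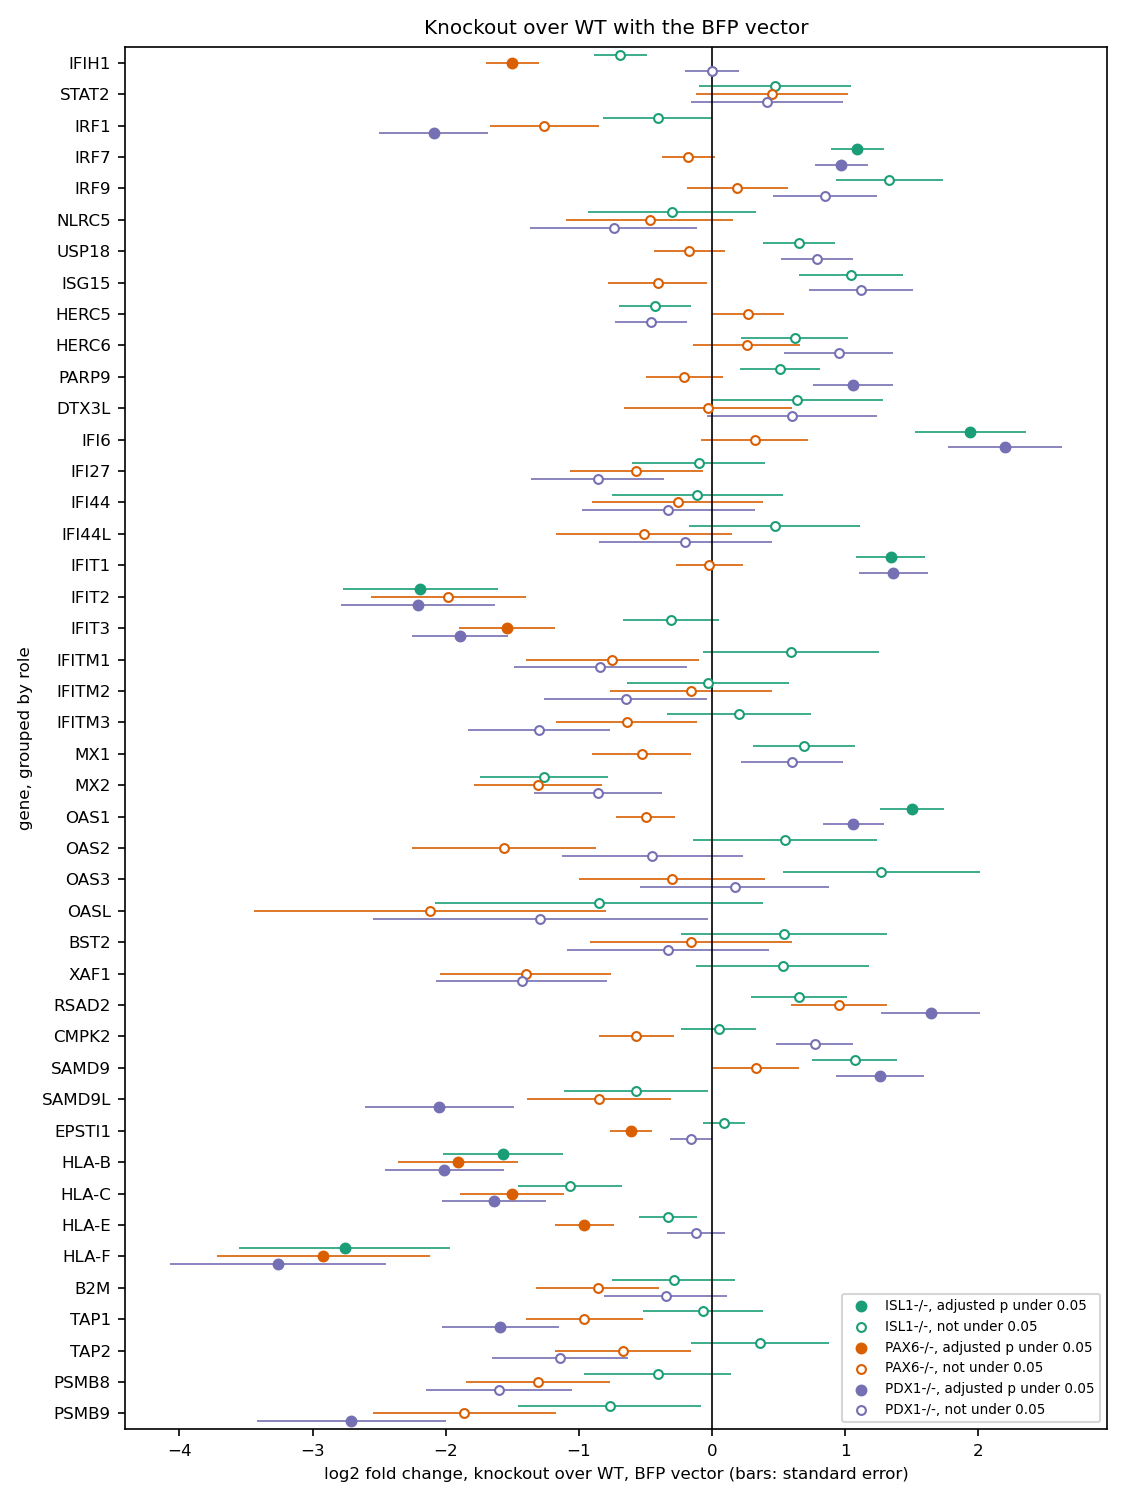
Points are log2 fold changes of each knockout over WT with the BFP vector, bars are standard errors, and filled points have an adjusted p under 0.05 in the fit to all 21 libraries. IFI6, IFIT1, OAS1 and IRF7 lie to the right for ISL1-/- and PDX1-/-, and HLA-B and HLA-F lie to the left for all 3 knockouts.

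The same 4 response genes rose in ISL1-/- and PDX1-/-: IFI6, IFIT1, OAS1 and IRF7. IFI6 was at 110 and 149 CPM in WT, 468, 399 and 627 in ISL1-/-, 510, 702 and 574 in PDX1-/-, and 181, 130 and 173 in PAX6-/-. The ISL1-/- and PDX1-/- libraries all lay above the WT ones, and the PAX6-/- ones overlapped them. Its log2 fold change was 1.94 (SE 0.42, adjusted p 0.0107) in ISL1-/- and 2.20 (SE 0.43, adjusted p 0.00358) in PDX1-/-. OAS1, which makes the oligoadenylate that switches on RNase L, was at 9.05 and 12 CPM in WT, 28.2, 26.4 and 34.9 in ISL1-/-, 21.9, 20.3 and 23.7 in PDX1-/-, and 7.24, 6.28 and 8.83 in PAX6-/-. No ISL1-/- or PDX1-/- library reached down to WT, and no PAX6-/- library reached up to it. Its log2 fold change was 1.5 (SE 0.24, adjusted p 0.000983) in ISL1-/- and 1.06 (SE 0.23, adjusted p 0.00715) in PDX1-/-. The ISL1-/- call of OAS1 held in each of the 21 fits that left out 1 library.

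IFIT1, which binds viral RNA caps, was at 10.1 and 8.8 CPM in WT, 21.1, 25.6 and 25.1 in ISL1-/-, 21.2, 28 and 23.8 in PDX1-/-, and 7.93, 9.82 and 10.3 in PAX6-/-. Again the first 2 knockouts lay wholly above WT and PAX6-/- overlapped it. The log2 fold change was 1.34 (SE 0.26, adjusted p 0.0047) in ISL1-/- and 1.36 (SE 0.26, adjusted p 0.00307) in PDX1-/-. IRF7, a transcription factor that amplifies the interferon response, was at 29.1 and 30.2 CPM in WT, 62.4, 55.6 and 71.7 in ISL1-/-, 57.8, 60.6 and 56.3 in PDX1-/-, and 26.4, 24.4 and 27.9 in PAX6-/-. Its log2 fold change was 1.09 (SE 0.20, adjusted p 0.0038) in ISL1-/- and 0.97 (SE 0.20, adjusted p 0.00535) in PDX1-/-. The IFI6, IFIT1 and IRF7 calls in both knockouts, and the OAS1 call in PDX1-/-, were each lost without 1 or both of the WT BFP replicates 1 and 3, with adjusted p up to 0.156, 0.0931, 0.0871 and 0.159, while the direction stayed.

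Other response genes passed in fewer comparisons, or only in some fits. ISG15 was at 43.1 and 41.5 CPM in WT, 93.7, 75.8 and 91.5 in ISL1-/-, 87.7, 110 and 77.5 in PDX1-/-, and 30.9, 29.8 and 34.7 in PAX6-/-. No knockout library overlapped WT, but with all 21 libraries the adjusted p was 0.133 in ISL1-/- and 0.0798 in PDX1-/-, and without the 2 libraries it was 9.8e-05 and 4.56e-05, with log2 fold changes of 1.06 and 1.1. IRF9, the DNA-binding partner of STAT2, had log2 fold changes of 1.33 in ISL1-/- (adjusted p 0.0596) and 0.85 in PDX1-/- (0.206). RSAD2, an antiviral radical SAM enzyme, was at 17.3 and 16.3 CPM in WT, 20.8, 27.3 and 31.3 in ISL1-/-, 40.4, 20 and 36.9 in PAX6-/-, and 41.7, 56.7 and 58.9 in PDX1-/-. Every knockout library was above both WT ones, and the rise passed the test in PDX1-/- (log2 fold change 1.64, SE 0.37, adjusted p 0.00903). This RSAD2 call was lost without either WT library, while the log2 fold change stayed at 1.55 to 1.78 with any 1 library left out. SAMD9 and PARP9 also rose in PDX1-/-, by log2 fold changes of 1.26 (adjusted p 0.0211) and 1.06 (adjusted p 0.0335). The SAMD9 call was lost without any 1 of the 5 libraries compared. The PARP9 call was lost without either WT library or PDX1-/- replicate 2 or 3.

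Members of a family did not move together. IFIT1, IFIT2 and IFIT3 are neighbours on chromosome 10, and IFIT2 fell where IFIT1 rose. IFIT2 was at 3.47 and 4.02 CPM in WT, 0.938, 1.13 and 0.404 in ISL1-/-, 0.705, 1.32 and 0.813 in PAX6-/-, and 1.18, 0.59 and 0.656 in PDX1-/-. Every knockout library was below both WT ones, with log2 fold changes of -2.19 in ISL1-/- (SE 0.58, adjusted p 0.0335) and -2.21 in PDX1-/- (SE 0.58, adjusted p 0.0224). The IFIT2 call in ISL1-/- was lost without any 1 of the 5 libraries compared (adjusted p up to 0.177), and that in PDX1-/- without either WT library or PDX1-/- replicate 2 or 3 (up to 0.115). IFIT3, a partner of IFIT1 in RNA binding, was at 29.3 and 29.3 CPM in WT, 28.6, 24.4 and 18 in ISL1-/-, 8.44, 12.6 and 9.04 in PAX6-/-, and 8.85, 7.81 and 7.06 in PDX1-/-. It fell in PAX6-/- (log2 fold change -1.54, SE 0.36, adjusted p 0.0175) and PDX1-/- (-1.89, SE 0.36, adjusted p 0.00306), the latter in all 21 fits that left out 1 library. The PAX6-/- call of IFIT3 was lost without either WT library or PAX6-/- replicate 1 or 3 (adjusted p up to 0.12). OAS1 rose in ISL1-/- and PDX1-/-, while OAS2, OAS3 and OASL passed in neither, with log2 fold changes of 0.55, 1.27 and -0.85 in ISL1-/- and -0.45, 0.17 and -1.29 in PDX1-/-. No difference between 2 genes was tested. All 3 IFIT genes lie inside the span of LIPA on the other strand, RSAD2 overlaps CMPK2, MX1 overlaps TMPRSS2, PARP9 overlaps DTX3L and PSMB9 overlaps TAP1 and PSMB8 in the gene models. The strand setting of the counting is not given in the sources used here, so reads of such pairs may be mixed.

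IFIH1, the sensor of long double-stranded RNA also called MDA5, was at 79.6 and 87.5 CPM in WT, 52, 52.9 and 50.4 in ISL1-/-, 29.9, 29.8 and 29 in PAX6-/-, and 74.4, 90.1 and 86.2 in PDX1-/-. The PAX6-/- libraries were the lowest, the ISL1-/- libraries lay between, and the PDX1-/- libraries overlapped WT. It fell in PAX6-/- (log2 fold change -1.5, SE 0.20, adjusted p 0.000359), also in each fit with 1 library left out. In ISL1-/- the value was -0.69 (adjusted p 0.0503), and -0.67 (adjusted p 0.000123) without the 2 libraries that stood apart. EPSTI1, an interferon-induced gene, also fell in PAX6-/-, from 59.2 and 61.1 CPM in WT to 42.4, 39 and 37.1 (log2 fold change -0.61, SE 0.16, adjusted p 0.0356). That call was lost without any 1 of the 5 libraries compared, with adjusted p up to 0.239.

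The class I genes with the largest falls in the knockouts were HLA-F and, in PDX1-/-, PSMB9. Of the 9 (HLA-B, HLA-C, HLA-E, HLA-F, B2M, TAP1, TAP2, PSMB8 and PSMB9), 0 rose and 2, 4 and 5 fell in ISL1-/-, PAX6-/- and PDX1-/-, with median log2 fold changes of -0.41, -1.31 and -1.60. Over all genes tested 3.92%, 3.26% and 5.65% fell. Leaving out the 2 libraries, 4, 8 and 8 of the 9 fell, where 12.2%, 11.9% and 14.1% of all genes did. TAP2, a subunit of the peptide transporter, was called in none of the 3 with all libraries: it was at 12.5 and 8.52 CPM in WT, 16.1, 15.8 and 8.79 in ISL1-/-, 6.25, 9.25 and 4.26 in PAX6-/-, and 5.65, 4.57 and 4.09 in PDX1-/-. It overlapped WT in ISL1-/- and PAX6-/-, with log2 fold changes of 0.36, -0.67 and -1.14 (adjusted p 0.792, 0.54 and 0.193). HLA-B, a chain that presents peptides to T cells, was at 330 and 334 CPM in WT, 133, 111 and 90.5 in ISL1-/-, 65.3, 108 and 92.1 in PAX6-/-, and 97.7, 75 and 75.2 in PDX1-/-. All 9 knockout libraries lay below WT, with log2 fold changes of -1.57 (SE 0.45, adjusted p 0.048), -1.91 (SE 0.45, adjusted p 0.0196) and -2.01 (SE 0.45, adjusted p 0.00871). HLA-F, a class I chain of the non-classical kind, was at 5.58 and 3.36 CPM in WT, 0.885, 0.607 and 0.482 in ISL1-/-, 0.249, 0.732 and 0.776 in PAX6-/-, and 0.706, 0.197 and 0.503 in PDX1-/-. Its log2 fold changes were -2.76 (SE 0.79, adjusted p 0.0487), -2.92 (SE 0.80, adjusted p 0.0397) and -3.26 (SE 0.81, adjusted p 0.0165). In ISL1-/- the HLA-B and HLA-F calls held in only 3 of the 21 fits that left out 1 library, with adjusted p up to 0.203 and 0.285. In PAX6-/- the HLA-F call was lost without any 1 of the 5 libraries compared (up to 0.259) and the HLA-B call without either WT library or PAX6-/- replicate 1 or 3 (up to 0.118). In PDX1-/- the HLA-B call was lost without either WT library (up to 0.0578) and the HLA-F call without WT replicate 1 or PDX1-/- replicate 2 or 3 (up to 0.139).

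HLA-C was at 522 and 496 CPM in WT, 274, 242 and 209 in ISL1-/-, 137, 220 and 181 in PAX6-/-, and 184, 154 and 152 in PDX1-/-. It fell in PAX6-/- (log2 fold change -1.5, SE 0.39, adjusted p 0.0303) and PDX1-/- (-1.64, SE 0.39, adjusted p 0.0121), and in ISL1-/- had -1.07 (adjusted p 0.122). Both calls were lost without either WT library or without replicate 2 or 3 of PDX1-/- and 1 or 3 of PAX6-/-, with adjusted p up to 0.178 in PAX6-/- and 0.0881 in PDX1-/-. HLA-E, which shows leader peptides to natural killer cells, was at 113 and 96.2 CPM in WT, 86.3, 79.5 and 84.3 in ISL1-/-, 51.8, 55.7 and 54.2 in PAX6-/-, and 95.1, 99.4 and 93.5 in PDX1-/-. The PAX6-/- fall passed (log2 fold change -0.96, SE 0.22, adjusted p 0.0174), but not without either WT library or PAX6-/- replicate 1 or 3 (up to 0.191), and the PDX1-/- libraries overlapped WT. B2M was at 1030 and 1150 CPM in WT, 877, 858 and 935 in ISL1-/-, 560, 518 and 726 in PAX6-/-, and 849, 896 and 824 in PDX1-/-. All knockout libraries were below WT, but no comparison passed with 21 libraries, the log2 fold changes being -0.29, -0.86 and -0.35 (adjusted p 0.819, 0.336 and 0.754). Class I genes are close copies of each other, and how reads that fit several of them were counted is not given in the sources used here.

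Genes of the peptide supply were called in PDX1-/-. PSMB9, a catalytic subunit of the immunoproteasome, was at 29.2 and 23.4 CPM in WT, 18.3, 16.7 and 11.3 in ISL1-/-, 4.88, 9.93 and 6.88 in PAX6-/-, and 5.69, 3.48 and 2.86 in PDX1-/-. It fell in PDX1-/- (log2 fold change -2.71, SE 0.71, adjusted p 0.0215). TAP1, a subunit of the peptide transporter, fell there too (-1.59, SE 0.44, adjusted p 0.0301), from 69.6 and 51.1 CPM to 27, 12.9 and 20.1. IRF1, a transcription factor that drives class I and immunoproteasome genes, was at 171 and 137 CPM in WT, 141, 116 and 90.8 in ISL1-/-, 53.1, 88.4 and 51.3 in PAX6-/-, and 45.3, 27.9 and 35.3 in PDX1-/-. It fell in PDX1-/- (-2.09, SE 0.41, adjusted p 0.00404), a call that held in all 21 fits that left out 1 library, and in PAX6-/- had -1.26 (adjusted p 0.0857). SAMD9L fell from 1.52 and 1.87 CPM in WT to 0.395, 0.304 and 0.524 in PDX1-/- (-2.05, SE 0.56, adjusted p 0.0271). The PSMB9 and TAP1 calls were lost without either WT library or PDX1-/- replicate 2 or 3. The SAMD9L call was lost without any 1 of the 5 libraries compared. With any 1 library left out, the log2 fold changes stayed at -3.05 to -2.52 for PSMB9, -1.87 to -1.35 for TAP1 and -2.27 to -1.88 for SAMD9L.

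Of the 44 genes, 16 were called in no comparison of the fit to all 21 libraries: IFI44, IFI44L, MX1, MX2, OAS2, OAS3, OASL, STAT2, BST2, XAF1, HERC5, HERC6, DTX3L, B2M, TAP2 and NLRC5. MX1, a GTPase that traps viral particles, was at 96.2 and 79.8 CPM in WT with BFP, 148, 149 and 128 in ISL1-/-, 53.5, 73.4 and 56.1 in PAX6-/-, and 141, 139 and 121 in PDX1-/-. No knockout library overlapped WT, and without the 2 libraries that stood apart it passed in ISL1-/- (log2 fold change 0.70, adjusted p 0.00152) and also in PDX1-/-. HERC5, the ligase that attaches ISG15, was at 21.8 and 19.6 CPM in WT, 13.5, 16.2 and 16.5 in ISL1-/-, 26.5, 17 and 31.7 in PAX6-/-, and 13.9, 18.5 and 12.7 in PDX1-/-. IFI44, IFI44L and OASL stayed under 2 CPM in every library, so changes in them were hard to detect at this depth.

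Markers of other cells were summed beside these falls. In bulk RNA, fewer cells of a type and less RNA per cell cannot be told apart. Summed over 8 endothelial markers the level was 154.8 to 157.6 CPM in WT with BFP, 111.1 to 111.9 in ISL1-/-, 88.9 to 102.8 in PAX6-/- and 87.92 to 107.5 in PDX1-/-. EGFL7 was at 97.8 and 100.6 CPM in WT with BFP and at 27.42 to 57.19 in the knockouts with BFP, and KDR at 24.02 and 14.36 against 1.25 to 6.81. CLDN5 went the other way, at 26.9 and 32.34 CPM in WT and 36.37 to 63.95 in the knockouts, and ESAM was at 6.32 and 7.43 against 3.41 to 15.05. Over the 21 libraries PECAM1 was at 0 to 0.48, CDH5 at 0 to 1.41, VWF at 0 to 0.73 and TIE1 at 0 to 0.71 CPM. The 10 blood and immune markers summed to 4.857 to 5.109 CPM in WT with BFP and 4.16 to 8.307 in the knockouts, and PTPRC, the common leukocyte antigen, was at 0 in 16 of 21 libraries and at most 0.17 CPM. The 8 mesenchymal markers ranged from 220.3 to 1236 CPM in WT with BFP and from 101.4 to 923.5 in the knockouts. The 8 exocrine and duct markers, mostly KRT19, summed to 1381 CPM in both WT libraries, 1055 to 1233 in ISL1-/-, 1358 to 1764 in PAX6-/- and 585.4 to 696.6 in PDX1-/-, so they were lowest in PDX1-/-. The 4 pluripotency markers summed to 12.35 to 12.73 in WT and 5.407 to 13.66 in the knockouts. The 12 endocrine markers summed to 66030 to 84680 CPM in WT, 29230 to 38550 in ISL1-/-, 18620 to 31050 in PAX6-/- and 65760 to 75150 in PDX1-/-. The part of these cell types in the class I results was not tested.

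Of 72 other genes of the interferon and antigen pathways, also listed with earlier results of these data known, 64 were tested. With BFP, 0 rose and 9 fell in ISL1-/-, 0 rose and 11 fell in PAX6-/-, and 1 rose and 15 fell in PDX1-/-, with medians of -0.51, -0.79 and -0.50. Over all genes tested 1.67% rose and 3.92% fell, 2.25% and 3.26%, and 4.03% and 5.65%. In the fit that left out the 2 libraries 7 rose and 28 fell, 3 and 37, and 8 and 33, where 11.3% and 12.2%, 11.7% and 11.9%, and 13.5% and 14.1% of all genes did. CXCL11, which draws T cells, averaged 6.28 CPM in WT and 0.24, 0.451 and 0.179 CPM in ISL1-/-, PAX6-/- and PDX1-/- (log2 fold changes -4.69, -3.80 and -5.11; adjusted p 0.00555, 0.0185 and 0.00288). GBP1, a guanylate-binding protein, averaged 76 CPM in WT and fell in ISL1-/- to 8.69 (log2 fold change -3.13, adjusted p 0.0402) and in PDX1-/- to 8.34 (-3.19, adjusted p 0.0256). GBP2 fell by 3.50 and 2.42 on the log2 scale in the same 2 knockouts. IRF8, a transcription factor, averaged 84 CPM in WT and fell in PAX6-/- to 13 (-2.69, adjusted p 0.00524) and in PDX1-/- to 13.8 (-2.61, adjusted p 0.0034). IRF2, which competes with IRF1 for its sites, fell by 0.72, 0.91 and 0.84 in the 3 knockouts, and the receptor gene IFNGR1 fell by 0.69 in ISL1-/- and 0.79 in PAX6-/-. The gene that rose in PDX1-/- was JAK1, a kinase of the receptors, from 119 to 413 CPM (log2 fold change 1.80, adjusted p 0.0247).

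Whether the response genes differ between knockouts was tested directly, in 2 comparisons added after the values above were seen. ISL1-/- over PAX6-/- with BFP, 3 libraries against 3, gave 7 of 44 higher and 0 lower, where 0.757% of all genes were higher and 1.70% lower. The genes were ISG15, IFI6, IFIT1, OAS1, IRF7, IFIH1 and EPSTI1. PDX1-/- over PAX6-/- gave 10 higher and 0 lower, where 1.52% of all genes were higher and 1.52% lower. These were ISG15, IFI6, IFIT1, OAS1, IRF7, IFIH1, USP18, CMPK2, PARP9 and HLA-E. OAS1 averaged 29.8, 22 and 7.45 CPM in ISL1-/-, PDX1-/- and PAX6-/-, log2 fold changes of 2.00 (SE 0.21, adjusted p 2.49e-05) and 1.56 (SE 0.20, adjusted p 0.000273) over PAX6-/-. IFI6 differed by 1.63 (SE 0.36, adjusted p 0.0175) and 1.88 (SE 0.36, adjusted p 0.00636), and ISG15 by 1.45 (SE 0.34, adjusted p 0.0261) and 1.53 (SE 0.34, adjusted p 0.0186). IFIT1, OAS1 and IRF7 kept their call in both comparisons in every fit that left out 1 library. HLA-B, HLA-C and HLA-F did not pass between knockouts, with log2 fold changes of 0.33, 0.43 and 0.16 for ISL1-/- over PAX6-/- (SE 0.41, 0.35 and 0.74). The 7 became 11 without PAX6-/- ISL1 replicate 3 and 15 without PDX1-/- ISL1 replicate 2 or 4. Without the 2 libraries that stood apart, 25 were higher and 0 lower in ISL1-/- (3.83% and 4.91% of all genes), and 18 higher and 4 lower in PDX1-/- (8.11% and 8.18%). The 7 genes became 4 without any 1 of the ISL1-/- libraries or PAX6-/- replicate 1, and 3 without PAX6-/- replicate 3. The 10 became 6 without PAX6-/- replicate 2 or PDX1-/- replicate 2.

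**Figure D3:**
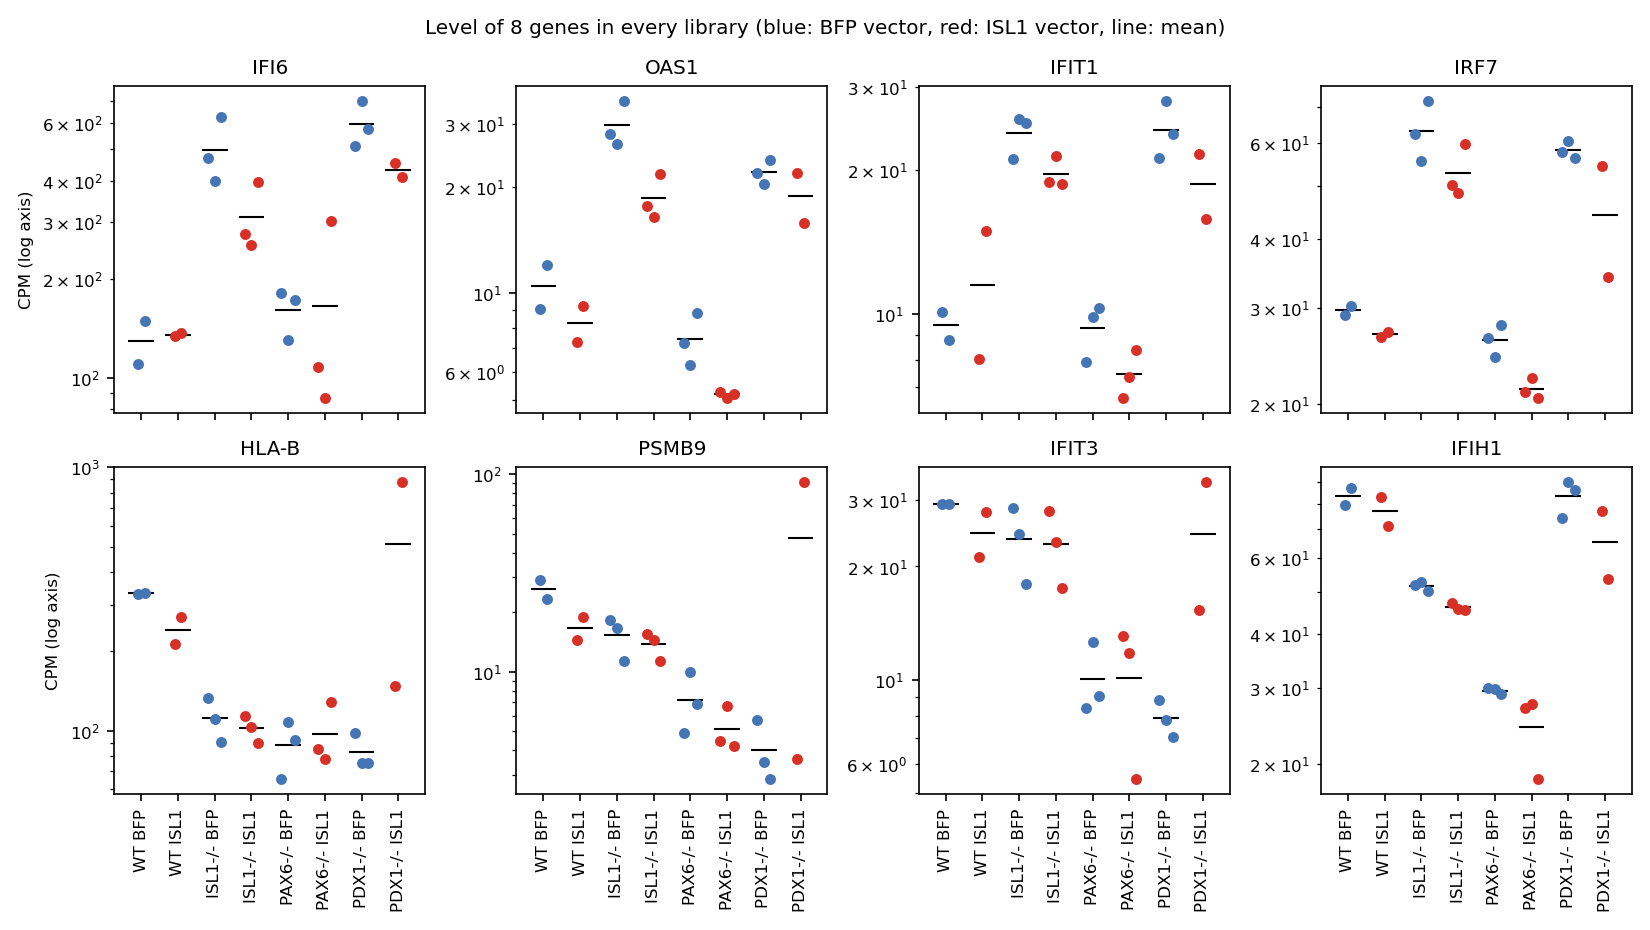
Each point is 1 library, on a log axis of CPM, for 8 genes in the 8 groups; blue is the BFP vector, red the ISL1 vector and the line the group mean. IFI6, OAS1, IFIT1 and IRF7 are higher in ISL1-/- and PDX1-/- than in WT or PAX6-/- with BFP, HLA-B is at 330 and 334 CPM in WT with BFP, and PDX1-/- ISL1 replicate 4 reaches 879 CPM of HLA-B and 91.1 CPM of PSMB9.

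The libraries with the ISL1 vector give a second reading of each knockout that shares no library with the first. The labels do not say whether both readings come from the same edited clones. In ISL1-/- over WT, 3 of 44 rose and 1 fell, where 1.02% of all genes rose and 2.69% fell. The genes were OAS1 (log2 fold change 1.17, SE 0.23, adjusted p 0.00854), IRF7 (0.98, SE 0.20, adjusted p 0.0112) and IRF9 (1.49, SE 0.40, adjusted p 0.0466) upward, and IFIH1 downward (-0.74, SE 0.20, adjusted p 0.0467). OAS1 was at 7.31 and 9.23 CPM in WT and 17.6, 16.4 and 21.7 in ISL1-/-, and IRF9 at 8.1 and 8.57 against 19.5, 19.1 and 31.5. Neither gene's groups overlapped. The IRF9 and IFIH1 calls were lost without any 1 of the 5 libraries compared (adjusted p up to 0.32 and 0.36). In PAX6-/-, 0 rose and 3 fell, where 1.26% rose and 2.3% fell. IFIH1 was at 83 and 71.1 CPM in WT and 27, 27.5 and 18.4 in PAX6-/- (log2 fold change -1.66, SE 0.20, adjusted p 0.000152), and this call too held in every fit with 1 library left out. CMPK2, a nucleotide kinase beside RSAD2, was at 28.2 and 27.2 CPM in WT and 14.2, 13 and 10.8 in PAX6-/- (-1.13, SE 0.28, adjusted p 0.0313). HLA-E was at 77.9 and 83.2 against 36.8, 46.6 and 46 (-0.90, SE 0.22, adjusted p 0.0294). In PDX1-/-, OAS1 (1.18, SE 0.25, adjusted p 0.0387) and EPSTI1 (0.92, SE 0.18, adjusted p 0.0293) rose and 0 fell, where 0.348% rose and 0.286% fell.

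Of the genes called with BFP, the sign with the ISL1 vector was the same for 7 of 7 in ISL1-/-, 7 of 7 in PAX6-/- and 11 of 16 in PDX1-/-. Over all 44 genes it was the same for 39, 38 and 23. Without the 2 libraries, the counts were 20 of 21, 19 of 20 and 28 of 29, and 39, 39 and 37 over all 44. The share of all genes tested with the same sign was not counted. These numbers therefore do not show an agreement particular to the 44 genes. The calls with the ISL1 vector then became 7 higher and 7 lower in ISL1-/- (8.22% and 11.2% of all genes), 0 and 17 in PAX6-/- (4.17% and 8.03%), and 10 and 2 in PDX1-/- (3.50% and 3.17%), the last resting on 1 library that is assumed to vary like the rest. IFI6 passed in PDX1-/- then (log2 fold change 1.75, SE 0.27, adjusted p 0.000736), as did PSMB9 downward (-2.19, SE 0.47, adjusted p 0.00766). With all other libraries in, leaving out WT replicate 1 or replicate 2 made the counts 0 in ISL1-/-, 1 in PAX6-/- and 0 in PDX1-/-. In PAX6-/- they were 10 and 11 without PDX1-/- ISL1 replicate 2 or 4. Most other libraries also moved the counts in ISL1-/- and PDX1-/- by over 1.5 times when left out, within 0 to 10 and 0 to 20.

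The vector itself was then compared within each genotype, ISL1-labelled over BFP-labelled. In WT, 0 of 44 genes passed in edgeR with 0 at an unadjusted p under 0.05, where 0.027% of all genes passed. In ISL1-/-, 0 passed, with 4 at an unadjusted p under 0.05, and in PAX6-/- 0 passed, with 6, where 0.382% and 0.355% of all genes passed. Of the 25884 genes tested, 988, 1971 and 2658 had an unadjusted p under 0.05 in WT, ISL1-/- and PAX6-/-. DESeq2 called 0 in WT, 1 in ISL1-/- (OAS1, log2 fold change -0.70, adjusted p 0.0407) and 1 in PAX6-/- (RSAD2, -1.10, adjusted p 0.042). With the replicate number of the descriptions as a block, 1 gene passed in ISL1-/- and 1, RSAD2, in PAX6-/- (-1.06, adjusted p 0.025). That block is 1 effect per number over all genotypes, not a pairing within PAX6-/-. Leaving out PDX1-/- ISL1 replicate 2 or 4 also gave 1 call in PAX6-/-. RSAD2 was at 40.4, 20 and 36.9 CPM with BFP and 14.7, 13.8 and 17.8 with ISL1 in PAX6-/-, and at 20.8, 27.3 and 31.3 against 13, 14.8 and 13.8 in ISL1-/-. The groups did not overlap in either knockout, while in WT the values were 17.3 and 16.3 against 20.9 and 16.1.

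Leaving out the 2 libraries that stood apart gave 6 lower and 0 higher in ISL1-/- (3.02% and 1.91% of all genes) and 5 lower and 0 higher in PAX6-/- (3.65% and 1.33%). In WT it gave 0, where 1.32% of all genes passed. There 4 of the 44 genes had an unadjusted p under 0.05, as did 2933 of the 27284 genes tested. RSAD2 (log2 fold change -0.96 in ISL1-/- and -1.20 in PAX6-/-), USP18, which removes ISG15 and damps the receptor (-0.78 and -0.83), CMPK2 (-0.52 and -0.52) and HLA-E (-0.52 and -0.38) fell in both. IFI6 and OAS1 (-0.72 each) fell in ISL1-/- and B2M (-0.50) in PAX6-/-. USP18 was at 21.8, 23.7 and 21.4 CPM with BFP and 13.6, 13.1 and 13.3 with ISL1 in ISL1-/-, and at 14.4, 9.64 and 13.8 against 7.68, 6.62 and, in the library left out, 12.8 in PAX6-/-. The difference of the vector effect from that in WT passed for 0 of 44 genes in ISL1-/- and 0 in PAX6-/-, where 0.00386% and 0% of all genes passed. At an unadjusted p under 0.05 there were 2 and 2 of the 44, and 769 and 916 of the 25884 genes tested. DESeq2 likewise called 0 and 0 of the 44. Without the 2 libraries the difference passed for 0 and 0, where 0.308% and 0.147% of all genes passed. Then 7 and 6 of the 44 had an unadjusted p under 0.05, as did 2387 and 2706 of the 27284 genes tested. The falls were therefore not shown to differ from WT.

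PDX1-/- had the most calls for the vector, 13 higher and 3 lower, where 8.19% of all genes rose and 4.33% fell, and these rest largely on replicate 4. HLA-B was at 97.7, 75 and 75.2 CPM with BFP and at 148 in replicate 2 and 879 in replicate 4 with ISL1. HLA-F was at 0.706, 0.197 and 0.503 with BFP, then 0.511 and 14.9, and PSMB9 at 5.69, 3.48 and 2.86, then 3.62 and 91.1. Replicate 4 was far above every other library for these genes, while replicate 2 lay within the BFP range for HLA-F and PSMB9 and above it for HLA-B. PSMB8 was at 21.7, 16.2 and 14.5, then 17.3 and 174. The IFITM genes, which block viral entry, were also highest in replicate 4: IFITM1 at 5.05, 2.22 and 1.31, then 4.23 and 29.2, IFITM2 at 5.67, 3.02 and 2.4, then 6.33 and 32.3, and IFITM3 at 43.2, 25.2 and 17.9, then 58.7 and 353. The 3 IFITM genes are similar in sequence, so reads may be divided between them in either way.

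EPSTI1 was the exception: it was at 54.8, 57.6 and 49.3 CPM with BFP and 103 and 109 with ISL1 in PDX1-/-, against 59.2 and 61.1, then 56.5 and 55.6, in WT. Both ISL1-labelled PDX1-/- libraries stood above all others (log2 fold change 0.98, SE 0.16, adjusted p 0.00155), and all 21 fits that left out 1 library kept the call. In the fit on only the 5 libraries compared it did not pass (adjusted p 0.271). HLA-C was at 184, 154 and 152 CPM with BFP and 289 and 1300 with ISL1, with both ISL1-labelled libraries above the BFP range. Its fitted log2 fold change was 2.28 (SE 0.39, adjusted p 0.00193), and 0.85 (adjusted p 0.0114) without the 2 libraries. The number called was 1 (EPSTI1) without replicate 4, 29 without replicate 2, and 10 without PDX1-/- BFP replicate 2 or 3. Without both libraries that stood apart, 6 rose (IFIT3, IRF1, SAMD9L, EPSTI1, HLA-B and HLA-C) and 2 fell (RSAD2 and HLA-E), where 5.46% of all genes rose and 3.46% fell. The remaining ISL1-labelled library is then assumed to vary like the other groups. Of the 13 genes called higher, 12 were above the BFP mean in replicate 2 and 9 above its BFP range. Replicate 2 is 1 of the 2 libraries behind these calls, so this is not a separate reading. The same share over all genes was not counted. For the 13 genes the median log2 difference from the BFP mean was 0.85 in replicate 2 and 3.19 in replicate 4. For the 3 called lower (RSAD2, CMPK2 and PARP9) it was -0.49 and -1.95. In replicate 4 the endothelial markers summed to 349.8 CPM, the blood and immune markers to 12.83 CPM, of which AIF1 made up 11.65, and the endocrine markers to 157400 CPM, each the highest of the 21 libraries. In replicate 2 the same sums were 111.9, 4.78 and 39040 CPM. INS, the insulin gene, was at 25612.11 CPM in replicate 4, against 163.96 in replicate 2. It was at 186.26, 162.79 and 87.52 with BFP in PDX1-/-, and at 7184.89 and 5651 in WT with BFP. GCG, the glucagon gene, was at 106083.77 CPM in replicate 4, 11659.46 in replicate 2 and 14965.5, 19602.92 and 16279.76 with BFP. Whether replicate 4 has the labelled genotype was not tested. The exocrine and duct markers were higher in both ISL1-labelled libraries, at 1360 CPM in replicate 2 and 3240 in replicate 4, than in the 3 BFP-labelled ones, at 696.6, 603.2 and 585.4, as were EPSTI1, HLA-B and HLA-C. The part of these markers, of the mitochondrial share and of transcript length in the calls was not tested.

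**Figure D4:**
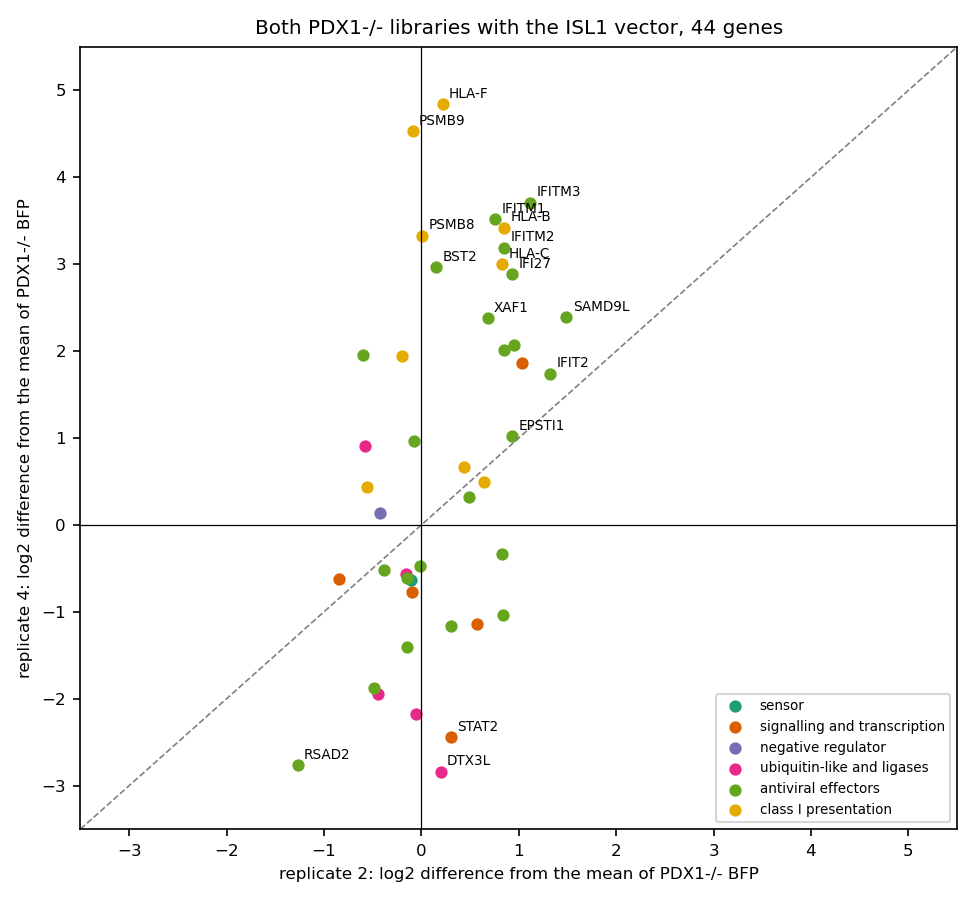
For each of the 44 genes, the log2 difference of PDX1-/- ISL1 replicate 2 (horizontal) and replicate 4 (vertical) from the mean of the PDX1-/- BFP libraries, on log2(CPM + 0.1), coloured by role; the dashed line marks equal differences. EPSTI1 lies near the line at 0.93 and 1.02, while HLA-F, PSMB9 and PSMB8 lie near 0 in replicate 2 (0.22, -0.09 and 0.01) and high in replicate 4 (4.84, 4.53 and 3.33).

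The vector effect in PDX1-/- minus that in WT passed for 3 genes upward and 0 downward, where 0.993% of all genes were higher and 0.197% lower. The log2 differences were 1.08 for EPSTI1 (SE 0.24, adjusted p 0.0383), 3.10 for HLA-B (SE 0.68, adjusted p 0.0341) and 2.56 for HLA-C (SE 0.58, adjusted p 0.0414). Without the 2 libraries that stood apart the same 3 genes passed, at 1.06 (adjusted p 0.00467), 1.33 (adjusted p 0.0373) and 1.13 (adjusted p 0.0337), where 1.80% of all genes were higher and 0.564% lower. HLA-B in WT was at 330 and 334 CPM with BFP and 213 and 270 with ISL1, and HLA-C at 522 and 496 against 385 and 456, so for both genes the ISL1-labelled libraries were below the BFP ones in WT and above them in PDX1-/-. The count was 0 when any WT or PDX1-/- BFP library, or PDX1-/- ISL1 replicate 4, was left out, 22 without PDX1-/- ISL1 replicate 2 and 8 without PAX6-/- ISL1 replicate 3. It was 0 or 1 without ISL1-/- BFP replicate 1 or 2, any ISL1-/- ISL1 library, or PAX6-/- BFP replicate 1 or 3. Of the pathway genes, 1 passed this difference, the chemokine CXCL10 (log2 difference 6.79, SE 1.29, adjusted p 0.0171). CXCL10 was at 0.0623, 0.125 and 0.0437 CPM with BFP in PDX1-/-, then 0.494 in replicate 2 and 5.16 in replicate 4. The difference was 4.32 without the 2 libraries (SE 0.94, adjusted p 0.0196), and 4 pathway genes passed. In the PDX1-/- vector comparison 18 pathway genes rose and 3 fell, where 8.19% and 4.33% of all genes did. With the 2 libraries left out 10 rose and 4 fell, where 5.46% and 3.46% did. CXCL11 was at 0.125, 0.214 and 0.197 CPM with BFP, then 0.123 in replicate 2 and 6.76 in replicate 4. PSMB10, an immunoproteasome subunit, was at 7.54, 5.4 and 5.35, then 8.8 and 85.9, and HLA-DRB1, a class II chain, at 0.499, 1.21 and 0.568, then 0.441 and 7.26. Their fitted log2 fold changes of 4.23, 2.96 and 2.32 became -0.50, 0.56 and -0.76 without the 2 libraries (adjusted p 0.718, 0.265 and 0.478). SOCS1, an inhibitor of the Janus kinases, was at 5.8, 4.11 and 4.09, then 12.6 and 34.1, above the BFP range in both. It had 2.32, and 1.46 (adjusted p 0.02) without the 2 libraries, and CXCL10 had 5.11 and then 2.64 (adjusted p 0.0342).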

How the data were processed

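Per the labels' protocols, RNA of sorted cells was amplified (SMART-Seq v4), libraries were built with the KAPA EvoPrep kit, and a NovaSeq X read them. The authors deposited a table of raw counts per gene, with exon lengths. STAR 2.7.11b, featureCounts 2.1.1 and the GRCh38 build are named in the submitters' processing notes. The strand setting, the annotation release and the handling of reads that fit several places are not given in the sources used here. ANK2, whose text runs over 3 lines of the table, was left out, which leaves 62699 genes. Symbols came from a gene name table, which matched all 62699 IDs.

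All 21 libraries entered 1 model in edgeR 4.0.16 (R 4.3.3), with TMM scaling, filterByExpr by group (minimum count 10, total 15), a coefficient per group and the quasi-likelihood F test. P-values were adjusted by Benjamini-Hochberg over all 25884 genes tested in each of 15 comparisons, of which 2, between knockouts, were added after the data were seen. Groups and replicate numbers came from the sample descriptions. CPM values are the deposited counts divided by the TMM-scaled library size. The code was tested on simulated data. A count of 0 allows up to 3 counts, and such floors cover counting error only. The members and gene lists were chosen with earlier results of these data known. Genes are named with values in every library where they are called (up to 8 per comparison, by fold), are among the 5 highest per kb, or belong to a family being contrasted. Other genes with such values (ISG15, IRF9, RSAD2, USP18, MX1 and HERC5 among them) were chosen after their values were seen.

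Same-numbered libraries were checked for pairing by the correlation of their deviations from the group means. The 3 numbers gave 0.155, 0.391 and 0.333 in PAX6-/- and 0.183, 0.099 and 0.293 in ISL1-/-. In no other comparison were there 3 pairs. Differently numbered libraries were not compared, so these values do not settle whether the libraries are paired. The main fit has no block, and the block tried was 1 effect per number over all genotypes. Alternatives were DESeq2 1.42.0, RLE scaling, no filter, fits on only the groups compared, a replicate block, leaving out each library and leaving out both libraries with a high mitochondrial share.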

Additional observations from a re-analysis of the deposited data

Results flagged for a closer look

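The effect of the ISL1 vector differed between PDX1-/- and WT, by the test of the difference itself in edgeR, for EPSTI1 (1.08 on the log2 scale), HLA-B (3.10) and HLA-C (2.56). In PDX1-/- the BFP-labelled libraries were the lower ones for each gene. The ISL1-labelled ones were at 103 and 109 CPM for EPSTI1, 148 and 879 for HLA-B and 289 and 1300 for HLA-C, against at most 57.6, 97.7 and 184 with BFP. Each of the 3 calls was kept in 1 of the 9 fits that left out a WT or PDX1-/- library, with adjusted p up to 0.265, 0.276 and 0.294. None of the 3 passed with the replicate block by title number (0.0586, 0.063 and 0.0691), or when only the 4 groups concerned were fitted (0.275, 0.299 and 0.311). All 3 passed in DESeq2. Number 4 of the descriptions belongs to PDX1-/- ISL1 replicate 4 alone. A block by description number therefore sets that library aside and is not a separate check of these calls. Without the 2 libraries with a high mitochondrial share the differences were 1.06, 1.33 and 1.13. What sets these genes apart in PDX1-/- was not tested. Nor was it tested whether replicate 4 has the labelled genotype, with INS at 25612.11 CPM against 163.96 in replicate 2.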

How the results depend on the processing

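Of 75 calls of a gene in a comparison, 75 were kept with DESeq2, 75 with RLE scaling, 66 without both libraries with a high mitochondrial share (8 lost, 1 reversed), 64 without the filter on low counts, 57 and 64 with the replicate block by the description or the title number (18 and 11 lost or reversed), and 51 in fits on only the groups compared. Over the fits that left out 1 library each, 1269 of 1575 were kept. Counts of genes called moved as follows. Unless a value or the smaller number of libraries shows it, the cause was not tested. The share of all genes called also moved with the setting. For ISL1-/- over WT with BFP, 1.67% rose and 3.92% fell, and without both libraries 11.3% and 12.2% did. For the other settings this share is not given here, so those counts do not show a change particular to these genes.

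Without both libraries the vector comparisons gave 6, 5 and 8 (in the order ISL1-/-, PAX6-/-, PDX1-/-, used throughout), the BFP comparisons with WT 21, 20 and 29, those with the ISL1 vector 14, 17 and 12, and ISL1-/- and PDX1-/- over PAX6-/- 25 and 22. The block by description number gave 1, 1 and 1 for the vector, 14, 15 and 25 with BFP, 9, 12 and 5 with the ISL1 vector, 0 for the PDX1-/- minus WT difference of vector effects and 19 for ISL1-/- over PAX6-/-. The block by title number gave 2 for ISL1-/- over WT with the ISL1 vector and 0 for the PDX1-/- difference. The replicate block changed no other count by over 1.5 times. Fits on only the groups compared gave 5 for the vector in ISL1-/- and 0 in PDX1-/-, 21, 16 and 29 with BFP, 17, 0 and 0 with the ISL1 vector, 0 for the PDX1-/- difference, and 19 and 19 over PAX6-/-. DESeq2 gave 1 and 1 for the vector in ISL1-/- and PAX6-/-, 8, 10 and 5 with the ISL1 vector, 9 for the PDX1-/- difference and 14 for ISL1-/- over PAX6-/-. No filter gave 9 for PAX6-/- and 1 for PDX1-/- with the ISL1 vector, and 7 for the PDX1-/- difference.

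With 1 library left out, the vector counts were 0 to 1 for PAX6-/-, and 1 to 29 for PDX1-/-. With BFP they ranged from 1 to 12, 1 to 13 and 3 to 22, with the ISL1 vector from 0 to 10, 1 to 11 and 0 to 20, over PAX6-/- from 3 to 15 and 6 to 12, and for the PDX1-/- difference from 0 to 22. Where a group is left with 1 library, it is assumed to vary like the others. For the vector in PDX1-/-, PSMB8 turned to -0.17 with the block by description number and -0.01 without PDX1-/- ISL1 replicate 4, and PSMB9 to -0.36 and -0.14, and to -0.12 without both libraries. Without replicate 2 of that group they were 3.31 and 4.49. Groups of 2 and the few counts of OASL, NLRC5, HLA-F and IFIT2 limit the precision.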
